A study of Mus musculus with 6 samples.

Results

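The immediate early and AP-1 genes Fos, Fosb, Jun, Junb, Jund, Egr1, Ier2, Dusp1, Atf3 and Zfp36 were followed through a culture of mouse bone marrow with Flt3 ligand (Flt3L), a growth factor that dendritic cells and their precursors need. They were taken by symbol from a table of RPKM, read counts scaled by exon length and by the reads in genes of the library, and all 10 were found among its 21761 genes and all 10 passed the filter on low values. The cells came from marrow of male C57BL/6J mice and, at day 4 and day 7, had grown in medium with a supernatant of a transfected SP2/0 line that held Flt3L. There were 2 libraries each of uncultured marrow (day 0, numbered II and III), of day 4 cells labelled common myeloid progenitors (I and II) and of day 7 cells labelled bone marrow derived dendritic cells (BMDC; III and IV). All live cells were taken at day 4 and day 7, per the labels, so that a library is a mixture of cell types. The labels do not say whether replicates are separate mice or cultures, and the p-values below cover the spread between these libraries alone, which may be technical. In such bulk samples, fewer cells of a type and less RNA per cell cannot be told apart.

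Immediate early genes are transcribed within minutes of a signal, without new protein synthesis, and their messages are as a rule short-lived. The Fos proteins (Fos, Fosb) pair with Jun proteins (Jun, Junb, Jund) to form the transcription factor AP-1, and Jun proteins can also pair with each other or with members of the ATF family such as Atf3. MAP kinases and the factors SRF and CREB switch many of these genes on, while Dusp1, a phosphatase that inactivates p38 and JNK, and Zfp36 (tristetraprolin, TTP), a protein that brings AU-rich messages to decay, limit the response. In macrophages and dendritic cells this circuit helps set how strongly and how long cytokine genes are read.

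The promoters are given so that genes whose window holds an exact motif of those inputs can be set beside genes whose window holds none. RefSeq windows (GRCm38.p6) of the 250 bases before the annotated start were at hand for 8 of the 10 genes. Capitals mark TGACG, the core of the cyclic AMP response element (CRE) bound by CREB and ATF proteins and contained in the full CRE TGACGTCA, searched on both strands (on the other strand it reads CGTCA, as in Atf3). They also mark the CArG box bound by SRF, searched on both strands, and the TATA box TATAAA, searched on the strand of the gene.
Fos (chr12:85473640-85473889, plus strand): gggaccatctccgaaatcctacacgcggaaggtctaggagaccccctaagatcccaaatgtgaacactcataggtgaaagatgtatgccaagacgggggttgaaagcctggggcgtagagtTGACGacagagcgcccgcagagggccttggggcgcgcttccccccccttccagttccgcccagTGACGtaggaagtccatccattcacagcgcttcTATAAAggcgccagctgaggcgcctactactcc
Fosb (chr7:19310046-19310295, minus strand): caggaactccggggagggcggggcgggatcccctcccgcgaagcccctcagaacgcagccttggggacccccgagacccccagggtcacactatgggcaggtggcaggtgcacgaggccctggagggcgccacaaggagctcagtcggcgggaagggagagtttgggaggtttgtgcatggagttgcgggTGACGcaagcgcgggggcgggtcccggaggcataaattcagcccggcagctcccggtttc
Dusp1 (chr17:26508473-26508722, minus strand): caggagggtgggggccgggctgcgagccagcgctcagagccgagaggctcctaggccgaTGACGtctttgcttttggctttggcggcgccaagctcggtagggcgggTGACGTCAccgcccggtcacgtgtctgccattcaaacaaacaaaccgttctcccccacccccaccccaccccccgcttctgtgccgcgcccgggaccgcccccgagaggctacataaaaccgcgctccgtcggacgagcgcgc
Atf3 (chr1:191183334-191183583, minus strand): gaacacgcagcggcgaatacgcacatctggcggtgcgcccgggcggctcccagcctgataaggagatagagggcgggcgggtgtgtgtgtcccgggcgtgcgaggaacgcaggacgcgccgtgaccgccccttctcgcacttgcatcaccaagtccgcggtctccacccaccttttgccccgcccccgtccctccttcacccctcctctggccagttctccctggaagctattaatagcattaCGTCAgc
Zfp36 (chr7:28379229-28379478, minus strand): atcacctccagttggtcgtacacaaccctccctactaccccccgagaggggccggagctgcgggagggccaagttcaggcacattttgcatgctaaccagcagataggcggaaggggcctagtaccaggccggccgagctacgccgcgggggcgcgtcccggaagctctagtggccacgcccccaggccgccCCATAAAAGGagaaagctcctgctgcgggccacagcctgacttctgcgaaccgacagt
Jun (chr4:95052223-95052472, minus strand): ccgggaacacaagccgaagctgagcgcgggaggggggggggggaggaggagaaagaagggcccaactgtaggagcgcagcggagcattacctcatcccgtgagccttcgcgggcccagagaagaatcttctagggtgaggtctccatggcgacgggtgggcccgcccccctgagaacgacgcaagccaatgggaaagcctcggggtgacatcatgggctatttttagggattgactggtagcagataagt

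A TGACG core was present in 5 of the 8 windows, those of Fos, Fosb, Junb, Dusp1 and Atf3, against 17.8% of 32851 RefSeq windows of the same length. In Fos the core nearest the start ran from base -66 to -62, counted from the annotated start, ahead of a TATA box at -33 to -28. Dusp1 held a full CRE at -143 to -136, a sequence that 1.55% of all windows held. The Zfp36 window held a CArG box at -58 to -49, found in 1.47% of all windows. The AP-1 site TGACTCA, searched on both strands, was in none of the 8 windows and in 4.46% of all. The Jun window printed above held no exact match of the motifs searched. It does hold tgacatca, a near match of the full CRE that an exact search passes over. The GC content of the 8 windows ran from 47.6% to 68.8%, against a median of 52.4% over all windows. The shares of all windows given for the motifs were not matched for GC content. A match describes letters and not binding.

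Some messages of the circuit also carry the heptamer TATTTAT that TTP binds. It was counted in the 3′ UTR of the GENCODE M21 transcript of each gene with the longest coding sequence. Dusp1 and Zfp36 had 3 heptamers each, Fos had 2, Fosb, Jun, Jund and Atf3 had 1 each, and Junb, Egr1 and Ier2 had 0. Only 1.26% of 3′ UTRs of like length held as many as Dusp1, 1.19% as many as Zfp36 and 3.97% as many as Fos, where like length means within 20% of that gene's. The sites of the genes with more than 1 heptamer are given with the heptamer in capitals.
Fos site 1: tttcaattTATTTATtaagatgg
Fos site 2: ttctcagaTATTTATatttttat
Dusp1 site 1: ctggtcctTATTTATttaacacc
Dusp1 site 2: tttaccttTATTTATttttgtgt
Dusp1 site 3: tgtttgttTATTTATgatctgaa
Zfp36 site 1: gggcccttTATTTATgacgactt
Zfp36 site 2: gacgacttTATTTATtgtattaa
Zfp36 site 3: ttttatagTATTTATatatattg

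Depth rose steeply over the culture, and it sets how firmly each level is known. Reads in genes numbered 157797 to 322837 a library at day 0, 1365635 to 3852628 at day 4 and 10951745 to 16149088 at day 7. The floor of 3 reads for a gene of 1 kb ran from 19.01 RPKM in the shallowest library to 0.186 RPKM in the deepest. Error bars and floors reflect counting alone, since reads copied by PCR are not separate molecules. The day 0 libraries stood apart from each other, with a Pearson correlation of 0.562 across genes on log2(RPKM + 1), against 0.899 at day 4 and 0.976 at day 7. The 14 neutrophil markers summed to 67717 RPKM in day 0 library II and to 8925 RPKM in library III. The 10 immediate early and AP-1 genes summed to 1049.7 and 1016 RPKM there, with Jun, Ier2 and Atf3 among those higher in library II and Fosb, Jund and Egr1 among those higher in library III.

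The labelled cell types were set against their markers. At day 4, the 7 markers of common myeloid progenitors summed to 668 and 858 RPKM, most of it Mpo (447 and 641 RPKM), which neutrophil precursors also express, while 14 neutrophil markers summed to 50882 and 37134 RPKM. At day 7, 16 dendritic cell markers summed to 3457 and 3738 RPKM, most of it the MHC class II genes Cd74, H2-Ab1 and H2-Aa and the broadly expressed Bst2. Itgax (24.7 and 25.9 RPKM) and Irf8 (38.8 and 35.6 RPKM) are shared by dendritic cells and other myeloid cells. They were among the 6 of 16 called higher at day 7 against day 0, and 5 were called lower. Over all genes tested limma called 11.3% higher there and 29.3% lower. At day 7 Flt3 (1.22 and 1.97 RPKM), which is also among the progenitor markers, and Zbtb46 (0.0288 and 0.0283 RPKM) were near 0. So were Xcr1 (0.528 and 0 RPKM) and Clec9a (0.703 and 0 RPKM) of the same list. Irf4, Ly6d and Cd24a had at most 2.25 RPKM there. Cd209a (11.8 and 21.5 RPKM), Tcf4 (8.69 and 8.02 RPKM) and Siglech (5.44 and 8.22 RPKM) were present at low levels. The 14 macrophage and monocyte markers summed to 10730 and 11248 RPKM. Highest among them were Apoe (4730 and 4795 RPKM), C1qb (1634 and 1813 RPKM) and Trem2 (1123 and 1188 RPKM). Of the 14, 10 were called higher at day 7 against day 0 and 2, Ly6c2 and Ccr2, lower. The day 7 libraries thus held macrophage messages at high levels and little of Flt3, Zbtb46, Xcr1 and Clec9a. MHC class II genes were high there, and Cd209a, Tcf4 and Siglech were present at low levels. The groups are called by their day.

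Fos, Fosb and Jund were lowest at day 4 and highest at day 7. Dusp1, Zfp36, Atf3 and Junb were also highest at day 7, with no call between day 4 and day 0, and Jun, Ier2 and Egr1 had no call in any comparison. Together they took 0.251% and 0.246% of reads in the day 0 libraries, 0.106% and 0.192% in the day 4 pair and 0.852% and 0.774% in the day 7 pair. At day 0 Fos (mean of 219 RPKM) and Dusp1 (194 RPKM) came first, and their ranges overlapped. At day 4 Zfp36 (174 RPKM) came first, followed by Jun, Ier2 and Dusp1 with ranges that each overlapped the next. At day 7 Dusp1 (1015 RPKM) and Fos (939.9 RPKM) overlapped each other and stood above Zfp36 (782 RPKM), which stood above the other 7.

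**Figure D1:**
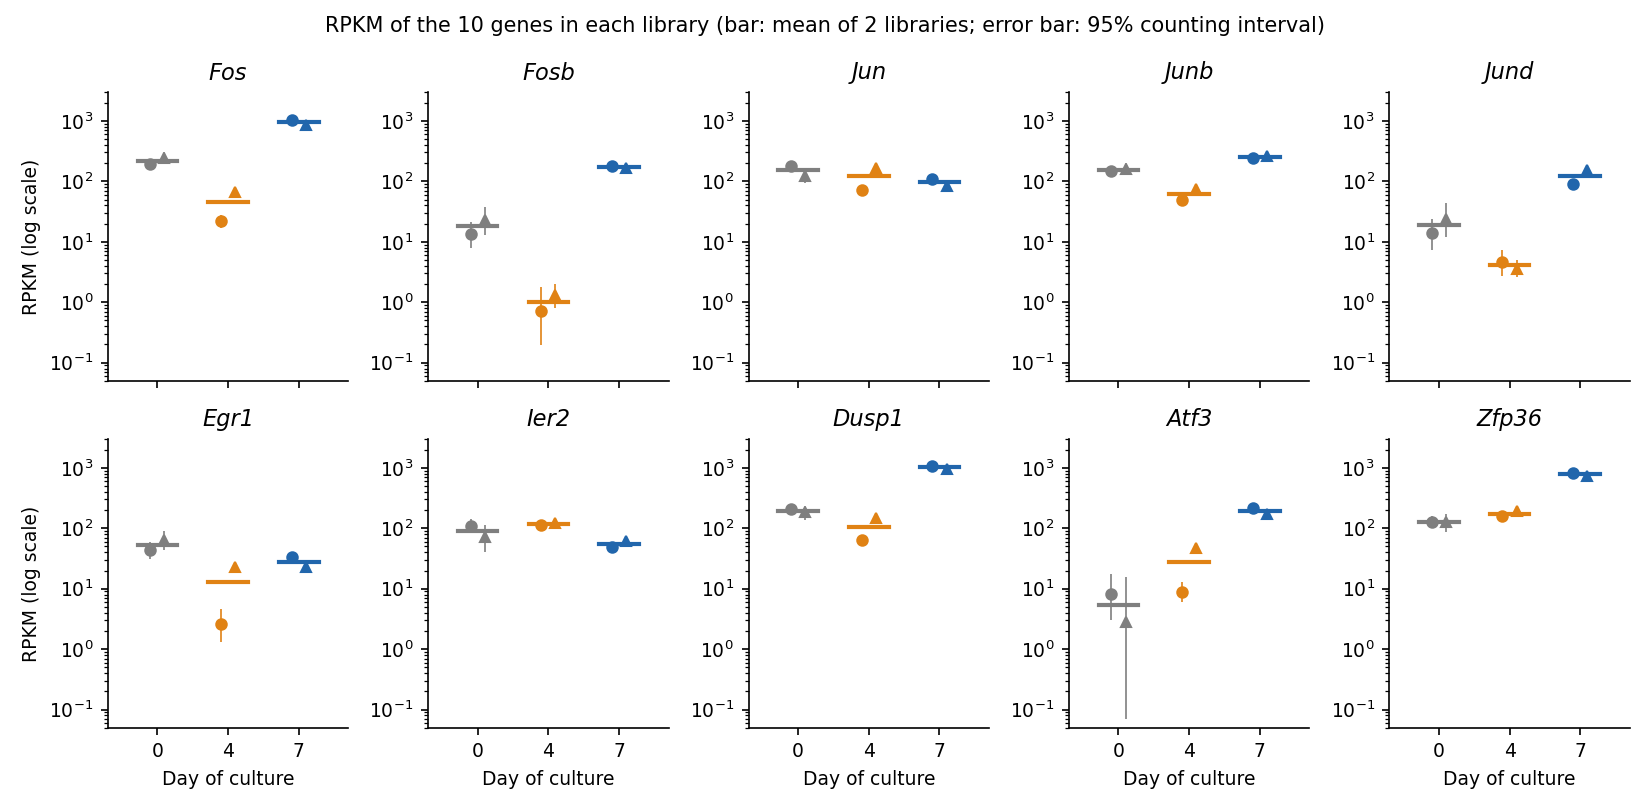
RPKM on a log axis by day of culture for each of the 10 genes, with circles for the first and triangles for the second library of a day in the order of the replicate numbers, error bars for the exact Poisson 95% interval of the reads and thick lines for the mean of the 2 libraries. Fos, Fosb and Jund sit lowest at day 4 and highest at day 7, while Jun stays between 72.8 and 182 RPKM in all 6 libraries.

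Fos, the founding partner in AP-1, had 195 and 242 RPKM in the day 0 libraries, 21.7 and 67.6 in the day 4 pair and 1023 and 857 in the day 7 pair. The 3 days did not overlap, and day 4 rested on 62 and 545 reads. Its close relative Fosb showed the widest swing of the 10, with 13.5 and 22.96 RPKM in the day 0 libraries, 0.707 and 1.32 in the day 4 pair and 182 and 167 in the day 7 pair. Only 18 and 15 reads at day 0 and 4 and 21 reads at day 4 stood behind those low levels, so that their exact size is poorly known. Both day 4 libraries lay below both day 0 libraries, and both day 7 libraries lay above all others.

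Among the Jun genes, which supply the partners of Fos in AP-1, Jund had 13.99 and 24.2 RPKM in the day 0 libraries, 4.58 and 3.61 in the day 4 pair and 90.8 and 156 in the day 7 pair. It followed the course of the Fos genes, and its day 0 values rested on 13 and 11 reads. Junb, which can act as an antagonist of Jun, had 149.8 and 159 RPKM in the day 0 libraries, 48.8 and 74.4 in the day 4 pair and 240.0 and 262 in the day 7 pair, with no overlap between days. Jun itself had 182 and 121 RPKM in the day 0 libraries, 72.8 and 167 in the day 4 pair and 111 and 83.4 in the day 7 pair. Its days overlapped between day 0 and day 4 and between day 4 and day 7.

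Of the other transcription factors, Atf3, an ATF/CREB-family protein known to restrain inflammatory genes in macrophages, had 8.14 and 2.77 RPKM in the day 0 libraries, 8.98 and 46.3 in the day 4 pair and 218 and 169 in the day 7 pair. The days did not overlap, but day 0 held 6 reads and 1 read, and the second of these levels lay under the floor of 8.32 RPKM for that gene and library. Egr1, a zinc finger factor switched on through SRF, had 43.4 and 63.95 RPKM in the day 0 libraries, 2.62 and 23.2 in the day 4 pair and 33.0 and 23.2 in the day 7 pair. The day 4 libraries differed more from each other than those of any other day. Ier2, a small nuclear protein of growth-factor responses, had 109.9 and 70.8 RPKM in the day 0 libraries, 114 and 124 in the day 4 pair and 49.8 and 61.6 in the day 7 pair. It was the one gene of the 10 whose libraries were all lowest at day 7.

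Of the negative regulators, Dusp1 had 206 and 183 RPKM in the day 0 libraries, 63.7 and 149 in the day 4 pair and 1079 and 951 in the day 7 pair. Zfp36 had 128 and 126 RPKM in the day 0 libraries, 158 and 189.6 in the day 4 pair and 829 and 734 in the day 7 pair. Neither gene's days overlapped. Ranked by RPKM among all genes of a day 7 library, Dusp1 stood at places 66 and 90, Fos at 74 and 108 and Zfp36 at 101 and 125. These 3, the genes with more than 1 heptamer among the sites printed above, were also the 3 of highest mean RPKM at day 7. At day 4, Jun, with 1 heptamer, and Ier2, with 0, had a higher mean RPKM than Dusp1 and Fos. A link between heptamers and level was not tested.

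The first step of the culture ran to day 4 and was set against day 0. Fosb was lower at day 4, at 1.01 ± 0.431 RPKM against 18.2 ± 6.71 RPKM at day 0 (mean ± SD over n = 2 libraries a day throughout), which is -3.23 ± 0.41 as a log2 fold change with its SE (on log2(RPKM + 1), limma adjusted p = 0.011). Fos was lower as well, at 44.6 ± 32.5 RPKM at day 4 against 219 ± 33.1 RPKM at day 0 (-2.47 ± 0.58, limma adjusted p = 0.0483). Jund was the third, at 4.09 ± 0.687 RPKM at day 4 against 19.1 ± 7.23 RPKM at day 0 (-1.94 ± 0.44, limma adjusted p = 0.0455). Of the 10 genes 3 were thus lower and 0 higher, where limma called 1.92% of 19279 genes tested lower and 3.66% higher. At an unadjusted p under 0.05, 5 were lower and 1, Atf3, was higher, and voom on recovered reads called 1 lower, Fos, and 0 higher. The median log2 fold change of the 10 was -1.16, against -0.40 over all genes tested. Both day 4 libraries lay below both day 0 libraries for 6 of the 10 and above them for 3, against 33.3% and 17.9% of all genes tested.

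The remaining 7 were not called at day 4, and their intervals were wide. Egr1 averaged 12.9 ± 14.6 RPKM at day 4 against 53.7 ± 14.6 RPKM at day 0 (log2 fold change -2.52, 95% interval -4.31 to -0.73, limma adjusted p = 0.0985). Junb averaged 61.6 ± 18.1 RPKM at day 4 against 154.5 ± 6.60 RPKM at day 0 (-1.34, interval -2.28 to -0.40, limma adjusted p = 0.0951). The log2 fold changes of Dusp1, Jun, Ier2, Zfp36 and Atf3 were -0.98, -0.42, 0.42, 0.45 and 1.89, with adjusted p between 0.157 and 0.64. The calls at this step depended on single libraries. Without day 4 library I or II, 0 of 10 genes were called, and without day 0 library III or either day 7 library Fosb alone was. Over all 16 alternatives Jund lost its call in 13, Fos in 11 and Fosb in 4. Weighting libraries by their quality also left 0 calls, among the 10 and among all genes.

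Between day 4 and day 7 most of the circuit rose. Fosb stood at 175 ± 10.8 RPKM at day 7 and at 1.01 ± 0.431 RPKM at day 4 (log2 fold change 6.46 ± 0.41, limma adjusted p = 0.00018), and 99.9% of all genes tested had a lower fold change. Fos, at 939.9 ± 118 RPKM at day 7 against 44.6 ± 32.5 RPKM at day 4, and Jund, at 124 ± 46.4 and 4.09 ± 0.687 RPKM on those days, both changed by 4.57 on the log2 scale (limma adjusted p = 0.00229 and 0.000726). Dusp1 was higher at day 7, at 1015 ± 90.7 RPKM against 107 ± 60.5 RPKM at day 4 (3.36 ± 0.54, limma adjusted p = 0.00621). The log2 fold changes of Atf3, Zfp36 and Junb were 3.15, 2.17 and 2.04 (limma adjusted p = 0.0271, 0.0171 and 0.016). In all 7 of 10 genes were higher and 0 lower, where limma called 5.85% of genes tested higher and 6.75% lower. At an unadjusted p under 0.05, 1 gene, Ier2, was lower, and voom on recovered reads called it lower too. For these 7 both day 7 libraries lay above both day 4 libraries, and for Ier2 both lay below, against 19.6% and 57.6% of all genes tested. The 5 genes with a TGACG core in their window were among these 7, as were Zfp36 and Jund, whose windows held none. Of the 8 genes with a window, Jun alone was not among them, so these counts cannot link the core to the rise. The median change of the 10 was 2.66, against -0.81 over all genes tested.

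Ier2, Jun and Egr1 were not called at this step. Ier2 averaged 55.7 ± 8.33 RPKM at day 7 against 119 ± 7.26 RPKM at day 4 (log2 fold change -1.08, 95% interval -2.00 to -0.17, limma adjusted p = 0.116). Jun averaged 97.2 ± 19.5 RPKM at day 7 against 120.1 ± 66.8 RPKM at day 4 (-0.20, interval -1.36 to 0.96), an interval that allows a change in either direction. Egr1 averaged 28.1 ± 6.97 RPKM at day 7 against 12.9 ± 14.6 RPKM at day 4 (1.61, interval -0.18 to 3.40, limma adjusted p = 0.206). Without day 4 library I or II, 0 of the 10 genes were called, as were 0 of all genes tested, with adjusted p of Fosb, Fos, Dusp1 and Jund at most 0.0923. Without day 7 library III or IV, 3 were called, Fos, Fosb and Jund. The directions of the 7 held in all of these.

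**Figure D2:**
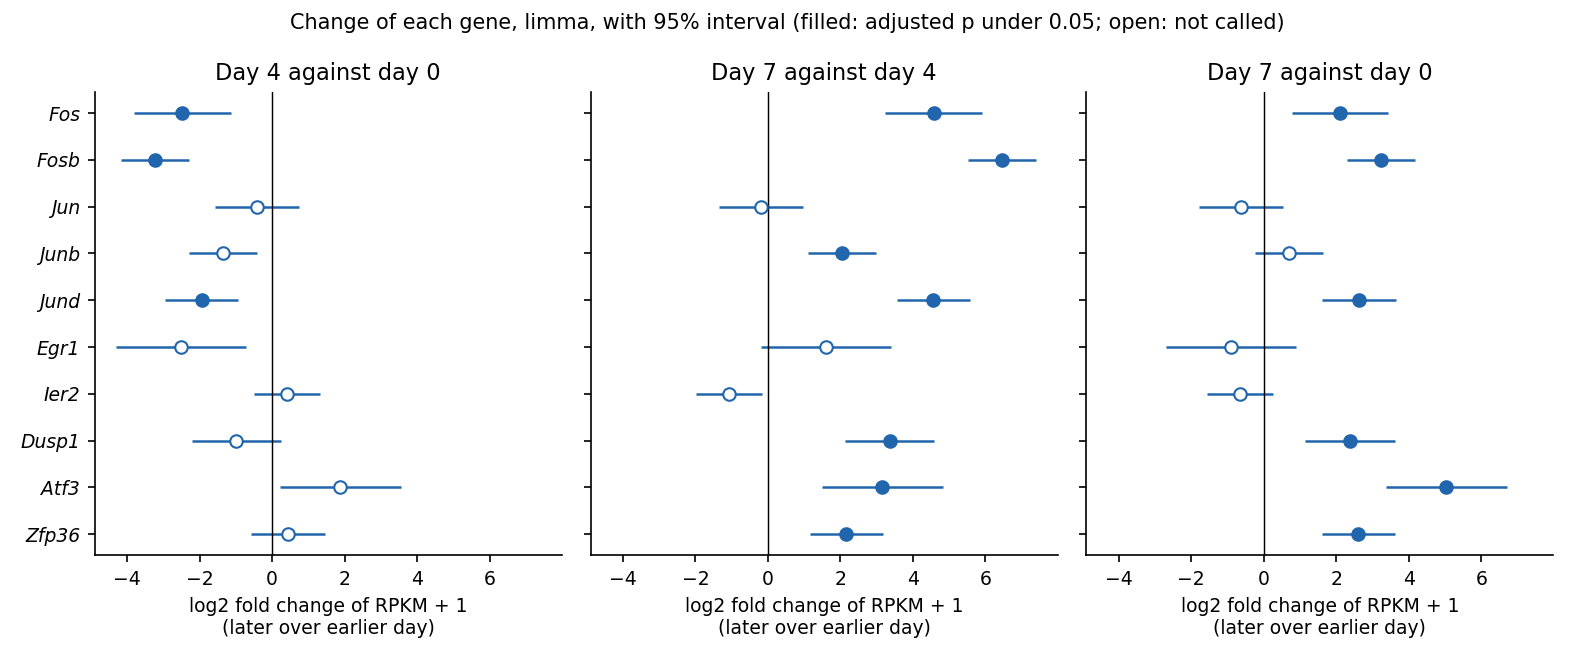
Log2 fold change of RPKM + 1 (later day over earlier day, x axis) of each gene in the 3 comparisons, with limma 95% intervals as bars. Filled points are called at an adjusted p under 0.05: 3 genes lower at day 4 against day 0, 7 higher at day 7 against day 4, and 6 higher at day 7 against day 0.

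Set against fresh marrow, day 7 shares its libraries with both steps above and is no separate evidence for them. Atf3 changed most, with 194 ± 34.7 RPKM at day 7 against 5.46 ± 3.79 RPKM at day 0 (log2 fold change 5.04 ± 0.73, limma adjusted p = 0.00315). Fosb (3.24), Jund (2.63), Zfp36 (2.61), Dusp1 (2.38) and Fos (2.10) were higher as well, with limma adjusted p between 0.00193 and 0.0254. Thus 6 of the 10 were higher and 0 lower, where limma called 11.3% of genes tested higher and 29.3% lower. At an unadjusted p under 0.05, and with voom, 0 were lower as well. Junb (0.70), Jun (-0.62), Ier2 (-0.66) and Egr1 (-0.91) were not called, with adjusted p between 0.202 and 0.352. Both day 7 libraries lay above both day 0 libraries for 7 genes and below them for the other 3, against 19.6% and 50.8% of all genes tested. Without day 7 library III, Atf3, Fosb and Jund were called, and without library IV, Atf3 and Fosb were. Scaling mattered here: with quantile normalization Atf3 alone was called higher, Jun (-2.00) and Ier2 (-1.87) were called lower, and Junb changed sign to -0.99.

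Among 5 Fos and Jun genes, the shares of messages turned over. Other AP-1 genes were left out of the sum. One of them, Fosl2, had 20.9 and 21.6 RPKM at day 4, where Fos had 21.7 and 67.6 RPKM. The sum of Fos, Fosb, Jun, Junb and Jund came to 554 and 569.9 RPKM in the day 0 libraries, 149 and 314 in the day 4 pair and 1647 and 1526 in the day 7 pair. RPKM is scaled by exon length, but other differences in how well each gene is read remain, so shares and ratios between genes are rough. Fos and Fosb held 37.7% and 46.5% of that sum in the day 0 libraries, 15.1% and 21.9% in the day 4 pair and 73.2% and 67.1% in the day 7 pair. Fos stood at 1.07 and 2.00 times Jun at day 0, at 0.298 and 0.404 times Jun at day 4, and at 9.21 and 10.3 times Jun at day 7. Jun was the most abundant of the 5 in both day 4 libraries, with 49.0% and 53.3% of the sum, and the least or next to least abundant of them at day 7, with 6.74% and 5.47%. Within the Jun genes, Jund rested on 18 and 40 reads at day 4. It stood at 0.0629 and 0.0216 times Jun on that day and at 0.817 and 1.87 times Jun at day 7. These are ratios of messages and do not give protein or dimer amounts, and no test was run on them.

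**Figure D3:**
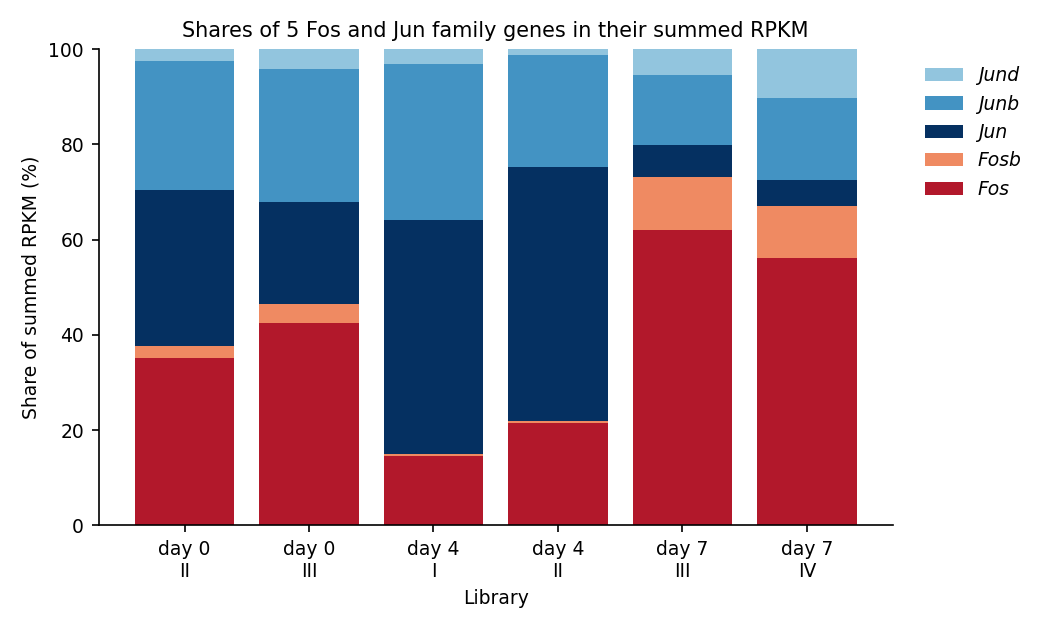
Share of each of 5 Fos and Jun family genes in their summed RPKM (y axis, %) in each of the 6 libraries. Jun is the largest share in both day 4 libraries and Fos in both day 7 libraries.

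Over the 6 libraries, which share day and depth, the genes of the circuit varied together to unequal degree. On log2(RPKM + 1), the Pearson correlation with the mean profile of the 10 was 0.97 for Fos and Dusp1, 0.95 for Junb, 0.92 for Fosb and 0.87 for Jund. It was 0.76 for Zfp36, 0.69 for Atf3, 0.66 for Egr1, 0.15 for Jun and -0.77 for Ier2. Between pairs of genes it ran from -0.93 for Fosb and Ier2 to 0.99 for Fos and Junb. Each gene is itself part of the mean profile, which raises its correlation with that profile. Among 2612 other genes with at least 10 reads in every library and a mean of at least 5 RPKM, the 6 most like that profile were Rpl6, a ribosomal protein gene, Pabpn1, a poly(A)-binding protein, Hsp90b1, a chaperone of the endoplasmic reticulum, Clic4, Pcna, the sliding clamp of DNA replication, and Eif4a1, a translation initiation factor. Their correlations ran from 0.98 for Rpl6 to 0.96 for Eif4a1, over 6 libraries. Rpl6 has processed copies that share its sequence, and its level is uncertain for that reason.

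The course of the 10 was set beside 28 other immediate early genes. At day 4 against day 0, where limma called 3.66% of all genes tested higher and 1.92% lower, 2 of the 28 were higher (Ier3 and Klf6) and 5 lower. Those 5, named after their values were seen, were Rhob, a small GTPase, Klf2 and Klf4, Krüppel-like factors, Per1, a clock gene, and Pim1, a kinase. At day 7 against day 4, 8 were higher and 1 lower, against 5.85% and 6.75% of all genes tested. The median log2 fold change of the 28 was 1.07, against -0.81 over all genes tested. Mcl1, a survival protein, had 219 and 176 RPKM at day 7 against 49.3 and 62.1 RPKM at day 4 (1.81, limma adjusted p = 0.0217). Ier5 had 75.2 and 84.0 RPKM at day 7 against 13.2 and 24.6 RPKM at day 4 (2.08, limma adjusted p = 0.0138). The 1 lower gene was Ppp1r15a, a phosphatase subunit of the stress response, with 33.0 and 32.4 RPKM at day 7 against 76.8 and 163.5 RPKM at day 4 (-1.75, limma adjusted p = 0.0482). At day 7 against day 0, 12 were higher and 3 lower, against 11.3% and 29.3% of all genes tested. Egr2, a relative of Egr1, had 14.6 and 21.8 RPKM at day 7 against 0.917 and 3.75 RPKM at day 0 (2.64, limma adjusted p = 0.0275).

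Other AP-1 and small bZIP genes did not follow as a group. Of 14 tested, 3 were higher and 1 lower at day 7 against day 4, where 5.85% of all genes were called higher and 6.75% lower, and the median log2 fold change was 0.02, against -0.81 over all genes tested. Among the higher genes, Maf, a bZIP factor of macrophages and other cells, had 25.8 and 21.6 RPKM at day 7 against 3.42 and 1.14 RPKM at day 4 (limma adjusted p = 0.00907), and Maff had 212 and 311 reads at day 7 against 0 and 1 at day 4 (limma adjusted p = 0.0481). The lower gene was Mafk (-2.13, limma adjusted p = 0.0264). The remaining Fos genes stayed low or level: Fosl1 had at most 7 reads in a library, and Fosl2 had 13.6 and 11.2 RPKM at day 7 against 20.9 and 21.6 RPKM at day 4 (-0.73, interval -1.71 to 0.24). Batf3, a factor of type 1 conventional dendritic cells, had 3.75 and 6.28 RPKM at day 7 against 1.80 and 0.212 RPKM at day 4 (1.68, limma adjusted p = 0.111).

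Upstream of the circuit, 17 genes of the MAP kinase cascade were tested, and most had no call. At day 4 against day 0, where limma called 3.66% of all genes tested higher and 1.92% lower, 3 were higher and 0 lower. Among them, Braf had 38.8 and 34.6 RPKM at day 4 against 6.38 and 11.8 RPKM at day 0 (log2 fold change 1.95, limma adjusted p = 0.039), and Map2k3 changed by 2.18 on the log2 scale (limma adjusted p = 0.0193). At day 7 against day 4, where limma called 6.75% of all genes tested lower and 5.85% higher, 3 were lower and 1 higher. Braf (-2.82, limma adjusted p = 0.00488) and Map2k4 (-1.50, limma adjusted p = 0.0295) were among the lower genes. The 1 higher gene was Mapkapk2, the kinase below p38 that phosphorylates TTP, with 110.7 and 127 RPKM at day 7 against 20.2 and 53.6 RPKM at day 4 (1.81, limma adjusted p = 0.0485). Of 11 genes of SRF, its ternary complex partners and CREB, 0 were higher and 1, Elk4, was lower at day 7 against day 4 (-1.75, limma adjusted p = 0.0402), a share near the 6.75% of all genes called lower. Srf had 8.49 and 7.99 RPKM at day 7 against 4.65 and 2.60 RPKM at day 4 (1.03, interval -0.08 to 2.15).

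The relatives of Dusp1 and Zfp36 rose in part between day 4 and day 7, a step at which limma called 5.85% of all genes tested higher and 6.75% lower. Of 10 other MAP kinase phosphatases, 3 were higher and 0 lower at day 7 against day 4: Dusp3 (log2 fold change 4.14, limma adjusted p = 0.003), Dusp2 (2.71, limma adjusted p = 0.0105) and Dusp4 (2.72, limma adjusted p = 0.0335). At 62.4 and 42.7 RPKM at day 7, Dusp3 was the highest of these and far below Dusp1. Dusp6, the phosphatase of ERK, had 14.7 and 15.1 RPKM at day 7 against 105 and 26.5 RPKM at day 4 (-1.76, limma adjusted p = 0.0907). Of 11 TTP relatives and decay partners, 2 were higher at this step, Zfp36l1 with 50.7 and 44.5 RPKM at day 7 against 6.87 and 4.52 RPKM at day 4 (2.88, limma adjusted p = 0.00561) and Zfp36l2 with 131 and 103 RPKM at day 7 against 31.5 and 32.3 RPKM at day 4 (1.83, limma adjusted p = 0.0162). Another 3, the deadenylase complex genes Cnot1, Cnot3 and Cnot7, were lower (log2 fold changes of -2.10, -1.93 and -1.82, limma adjusted p = 0.0174, 0.0415 and 0.0249).

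Some messages known from other work as TTP targets were higher at day 7. Of 12, 5 were higher and 0 lower at day 7 against day 4, where limma called 5.85% and 6.75% of all genes tested. The median log2 fold change of the 12 was 1.30 at that step, against -0.81 over all genes tested. At day 7 against day 0, 8 were higher and 2 lower, against 11.3% and 29.3% of all genes tested. Il1b (-1.42) and Il6 (-0.89) were among those not called at day 7 against day 4. Cxcl2, a neutrophil-attracting chemokine, had 497 and 319 RPKM at day 7 against 9.34 and 16.6 RPKM at day 4 (log2 fold change 4.89, limma adjusted p = 0.00115). Tnf had 78.9 and 87.4 RPKM at day 7 against 23.2 and 11.97 RPKM at day 4 (2.25, limma adjusted p = 0.0109). Ccl3, another chemokine, had already 61.3 and 219.8 RPKM at day 4, against 4.03 and 5.50 RPKM at day 0 (4.36, limma adjusted p = 0.0117). So had Ier3, which the list of immediate early genes also holds, with 80.6 and 217 RPKM at day 4 against 2.84 and 5.81 RPKM at day 0 (4.70, limma adjusted p = 0.00721). The 2 lower genes at day 7 against day 0, Csf2 and Il23a, were listed at 0 in both day 7 libraries. At day 0 they rested on 1 or 2 reads a library, under the floor of 3 reads, as did the day 0 levels of Ier3 and Egr2, and Ccl3 held 3 and 2 reads there.

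Markers of other cell types moved with these days, and the size of those shifts stands beside every change above. The 14 neutrophil markers summed to 67717 and 8925 RPKM in the day 0 libraries, 50882 and 37134 in the day 4 pair and 225 and 236 in the day 7 pair, where Mpo and Prtn3 were at 0 in both libraries. All 14 were lower at day 7 against day 4. The 12 erythroid markers summed to 80955 and 40185 RPKM in the day 0 libraries, 3912 and 4220 in the day 4 pair and 25.0 and 45.8 in the day 7 pair, and 7 of them were at 0 in each day 7 library. The macrophage and monocyte markers summed to 1395 and 737 RPKM in the day 0 libraries, 1286 and 1021 in the day 4 pair and 10730 and 11248 in the day 7 pair, and 10 of 14 were higher and 1, Ly6c2, lower at day 7 against day 4. The 16 dendritic cell markers summed to 1036 and 846 RPKM at day 0 and to 610 and 315 RPKM at day 4. At day 7 they summed to 3457 and 3738 RPKM. Of these 16, 5 were higher and 1, Cd24a, lower at day 7 against day 4. At day 4 against day 0, all 12 erythroid markers were lower, and 2 macrophage and monocyte markers, Ccr2 and Fcgr1, were lower and 0 higher. Over all genes tested limma called 3.66% higher and 1.92% lower at that step, and 5.85% and 6.75% at day 7 against day 4. The part of these marker shifts, and of depth, in the changes of the 10 genes was not tested.

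**Figure D4:**
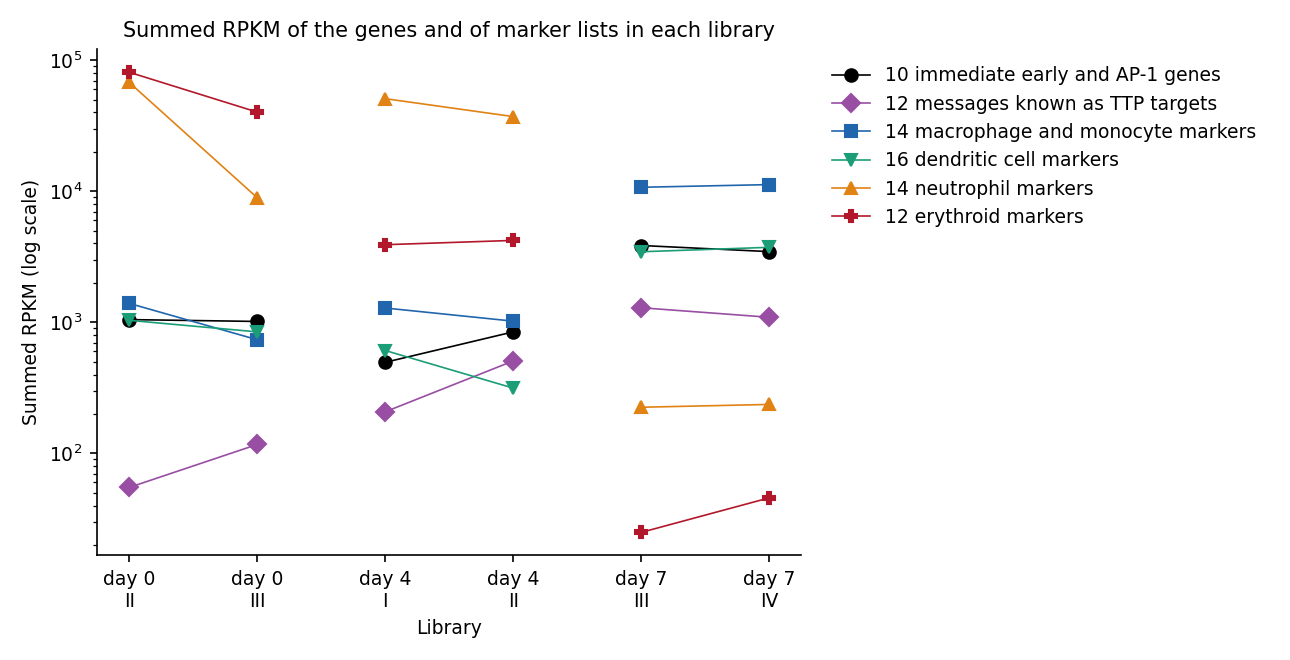
Summed RPKM (log axis) of the 10 immediate early and AP-1 genes, of known TTP targets and of 4 lists of cell type markers in each of the 6 libraries, with lines that join the libraries of a day. The 10 genes, the TTP targets and the macrophage and dendritic cell markers are highest at day 7, where the neutrophil and erythroid markers are lowest.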

How the data were processed

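Total RNA (Qiagen RNeasy) was made into 6 libraries with the SMARTer v3 Ultra Low Input kit and then NexteraXT, per the labels' protocols. The table deposited by the authors gives RPKM per gene with exon lengths, per the file headers. TopHat2 2.0.13, SAMtools 1.1 and the build mm9 appear, with no role, per the submitters' processing notes. How reads were counted, on which annotation and with or without strand is not given in the sources used here, and without strand, antisense reads cannot be told apart.

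Each RPKM value came out as whole reads, within 5.41e-05 reads, so reads were recovered and given exact Poisson 95% intervals. The 19279 genes that reached RPKM 1 in 2 or more libraries were tested on log2(RPKM + 1), which understates changes of low genes. One model of 3 day means was fitted with limma 3.58.1 in R 4.3.3 (trended eBayes, 3 residual degrees of freedom, two-sided, Benjamini-Hochberg over all genes tested), with calls at adjusted p under 0.05. Code was tested on simulated data. Exact permutation of 2 against 2 libraries cannot pass 0.05 and was not used. The table was handled in Python 3.11.15.

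The genes, lists, settings and naming rule were chosen with earlier results of these data known. The rule named all 10 genes, up to 4 called members of each other list and its 2 most abundant by mean RPKM, 10 relatives, and the 6 genes most like the mean profile. Promoters are from RefSeq GRCm38.p6 and 3′ UTRs from GENCODE M21, another build than mm9. The 16 alternatives included other pseudocounts, filters and scalings, voom on recovered reads, thinning, quality weights, fits of only 2 groups, and 6 fits without 1 library each.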

Additional observations from a re-analysis of the deposited data

How the results depend on the processing

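No paired analysis was possible because no 2 days share 2 replicate numbers (II and III at day 0, I and II at day 4, III and IV at day 7). Of 480 values of the 10 genes under 16 alternatives, 390 kept their direction and their side of the threshold, 72 lost a call, 11 gained one and 7 changed sign. The sign changes were those of Ier2 (-0.33) and Zfp36 (-0.35) at day 4 against day 0 and of Junb (-0.99) at day 7 against day 0 with quantile normalization, and otherwise of Jun. The log2 fold change of Jun at day 7 against day 4 was 0.063 with median-ratio scaling and ran between -0.79 and 0.40 when each library was left out, with 0.40 where day 4 library II was out and 0.0073 where day 7 library IV was. At day 4 against day 0 that range for Jun was -1.02 to 0.17, with 0.17 where day 4 library I was out. The causes were not tested. No other pair of a gene and comparison changed sign.

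Counts of calls depended on the setting. At day 4 against day 0, 705 of all genes tested were higher and 370 lower in the fit reported, and 3 of the 10 genes were lower. With a pseudocount of 0.1 these counts were 423, 112 and 1, with voom on recovered reads 116, 193 and 1, with thinning to the smallest library 455, 1235 and 1, with only the 2 groups compared 389, 140 and 1, and with quality weights 0, 0 and 0. At an unadjusted p under 0.05 limma had 2161 higher and 2735 lower genes in the fit reported. Without a filter 234 genes were lower, and 1 of the 10, as was 1 of the 10 with median-ratio scaling. With RPKM of at least 10 in 2 libraries 1063 genes were higher.

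At day 7 against day 4, 1127 genes were higher and 1301 lower in the fit reported, with 7 and 0 of the 10. Quantile normalization gave 495 and 483, with 4 and 1 of the 10, and thinning gave 317 and 572, with 3 of the 10 higher. The fit of only the 2 groups gave 1963 and 1958, with 1 of the 10 lower, voom gave 2396 and 10392, with 1 of the 10 lower, and a pseudocount of 0.1 gave 2846 lower. The 1 gene lower in these was Ier2. At day 7 against day 0, 2183 genes were higher and 5649 lower, with 6 and 0 of the 10. Quantile normalization gave 1211 and 930, with 1 and 2 of the 10, thinning 873 and 2759, with 3 of the 10 higher, and voom 1333 and 10155. A pseudocount of 10 gave 3167 lower and the filter at 10 RPKM 1132 lower. The median log2 fold change over all genes at that comparison was -1.14 in the fit reported and -0.01 with quantile normalization.

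Leaving out each library in turn gave 0 to 1423 higher and 0 to 974 lower genes at day 4 against day 0, with 0 to 4 of the 10 lower. It gave 0 to 1952 higher and 0 to 2168 lower genes at day 7 against day 4, with 0 to 7 of the 10 higher and 0 to 1 lower. It gave 669 to 2447 higher and 504 to 6753 lower genes at day 7 against day 0, with 2 to 6 of the 10 higher and 0 to 1 lower. The counts of 0 over all genes came without day 4 library I or II, where the lone day 4 library is assumed to vary like those of the other days, and at an unadjusted p under 0.05 limma had 1490 to 1611 higher and 1826 to 5670 lower genes there. With quality weights it had 1291 and 1466 at day 4 against day 0. Depth limits the day 0 levels of Atf3, Jund and Fosb, which rest on 1 to 18 reads a library.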

Other observations

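Genes of NF-kB, a pathway that shares many signals with AP-1, were counted as well, both its subunits and its inhibitors. Of 11 such genes, 2 were higher and 0 lower at day 7 against day 4, where limma called 5.85% and 6.75% of all genes tested. At day 7 against day 0, 5, among them the subunit gene Rela, were higher and 0 lower, where 11.3% and 29.3% of all genes were called. Nfkbia, which encodes the inhibitor IkB alpha, was early: it had 382 and 489 RPKM at day 4, against 107.9 and 88.3 RPKM at day 0 (log2 fold change 2.14, limma adjusted p = 0.0357), and its difference between day 7 and day 4 was -0.35 (limma adjusted p = 0.556). Tnfaip3, the ubiquitin-editing enzyme A20, was late: it had 53.98 and 40.05 RPKM at day 7 against 11.2 and 11.9 RPKM at day 4 (1.92, limma adjusted p = 0.0173). Nfkbie had 19.6 and 23.5 RPKM at day 7 against 5.75 and 5.04 RPKM at day 4 (1.82, limma adjusted p = 0.0279).

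Heat shock genes, another group of rapid response, went in several directions. Of 11, 1 was higher and 3 lower at day 7 against day 4, where limma called 5.85% and 6.75% of all genes tested. The mitochondrial chaperonin gene Hspe1 had 382 and 435.5 RPKM at day 7 against 16.2 and 15.6 RPKM at day 4 (log2 fold change 4.60, limma adjusted p = 0.000449). The inducible Hspa1a had 14.5 and 14.4 RPKM at day 7 against 56.0 and 231 RPKM at day 4 (-2.89, limma adjusted p = 0.0195), and Hspa1b was lower too (-4.97, limma adjusted p = 0.00227). Hspa1a and Hspa1b are near-identical copies, so the split of reads between them is uncertain. Hspa8 and Hsp90ab1, the most abundant of the list, were not called in any of the 3 comparisons.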
